A study of Mus musculus with 9 samples.

Results

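The 9 enzymes of ceramide and glucosylceramide metabolism listed here were followed across the thymus, liver and spleen in iNKT1 cells, the invariant natural killer T cells that use the transcription factor T-bet and make interferon-gamma. The 9 genes, out of 14004 in the deposited table, were Sptlc1, Sptlc2, Cers2, Cers5, Cers6, Degs1, Ugcg, Sgms1 and Asah1. They were listed around Ugcg when tissue results for these same 9 libraries were already known, so their tissue differences are given as a description, with no test of the list. No numerical threshold is part of the list. All 9 were in the table and all 9 passed the filter on low values.

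RNA was sequenced from iNKT1 cells of untreated C57BL/6 mice, in 3 libraries each from thymus, liver and spleen. All 9 libraries carry the genotype label Tbx21CreTg;Rosa26-LSL-YFP+/+. Tbx21 encodes T-bet. In such mice Cre made under Tbx21 control switches on a yellow fluorescent protein, which then also marks cells that used Tbx21 only in the past. No library lacks the transgene or the reporter, and mouse age and any pooling of mice are not given in the sources used here. The replicates are described as independent without saying that each came from its own animal, so a p-value measures only the spread between these libraries, which may be technical.

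Ceramide is the branch point of sphingolipid metabolism. Serine palmitoyltransferase starts its synthesis on the endoplasmic reticulum, ceramide synthases attach the second acyl chain, and a desaturase completes the molecule. Ceramide is then turned into glucosylceramide, the first of most glycosphingolipids, into sphingomyelin, or back into sphingosine. Glycolipids matter to iNKT cells in particular, because their receptor recognises lipids presented by CD1d, and alpha-linked glycosylceramides are the classical strong ligands. Glucosylceramide made by Ugcg is beta-linked.

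The values are the authors' normalised read counts. Estimated depth ran from 18506598 to 39568081 reads in 8 libraries and was 3877451 reads in liver replicate 3. The 10 T cell and iNKT1 markers (such as Tbx21, Zbtb16 and Cd3e) were all in the table and summed to between 116918 and 175958 in every library. Of 10 hepatocyte markers, 7 were in the table. Their sum was 1427 to 1829 in liver, 110 to 868 in thymus and at most 49.0 in spleen. In thymus most of it was Trf (110, 598 and 205), which was lower in liver (7.69 to 43.5). Alb read 0.02, 268 and 84.0 in thymus and 1172 to 1588 in liver. Of 10 myeloid markers, 7 were in the table, with a sum of 3614 in spleen replicate 1 and 10.6 to 1299 elsewhere, and of 8 B cell markers, 6 were in the table, with 4283 in spleen replicate 1 and at most 759 elsewhere. In each tissue the library numbered 2 had a high level of Xist (84543 to 107736) and at most 21 reads over 4 Y-linked genes. Reads of those 4 genes numbered 1458 or more in the remaining libraries, and thymus replicate 3 had 7016 of them together with Xist at 16531. The value column of thymus replicate 2 is headed WTf where the others have WT, and the labels do not explain the f.

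Ugcg encodes glucosylceramide synthase, the enzyme that adds glucose to ceramide and so commits it to glycosphingolipids. It lies on chromosome 4, from 59189257 to 59222833 on the plus strand of GRCm38, and is spliced from 9 exons. Stretches of its RefSeq promoter window (GRCm38.p6, 250 bases before to 50 after the start, plus strand) are shown because they hold the only GC boxes there. Capitals mark the motif GGGCGG, read here on the opposite strand as CCGCCC; the first stretch is chr4:59189472-59189501 and the second is chr4:59189496-59189525.
Ugcg, upstream GC box: cgcaggccctgcCCGCCCcttccgtcctca
Ugcg, downstream GC box: tcctcacgcccgCCGCCCcgccggcccttc
The GENCODE gene start lies upstream of this RefSeq window, so both stretches fall inside the first exon of that annotation.

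Ugcg was higher in thymus than in liver or spleen. Its normalised read count was 42269, 25933 and 38426 in thymus replicates 1, 2 and 3. It was 17199, 10823 and 12447 in liver and 15257, 15448 and 12347 in spleen. The lowest thymus library stood above the highest library of either other tissue, so thymus overlapped with neither. The means were 35543 ± 8541 in thymus, 13490 ± 3313 in liver and 14351 ± 1738 in spleen (SD, n = 3 each).

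The Ugcg difference on the log2(value + 1) scale was -1.39 (SE 0.23) for liver minus thymus and -1.29 (SE 0.23) for spleen minus thymus. The median of all 13309 genes tested was itself at 0.29 and 0.33 in these comparisons, so that, relative to the median gene, Ugcg stood at -1.69 and -1.61. Liver and spleen overlapped, and their difference was -0.11 (SE 0.23). In bulk libraries such as these, fewer cells that use a gene and less of its RNA per cell cannot be told apart.

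**Figure D1:**
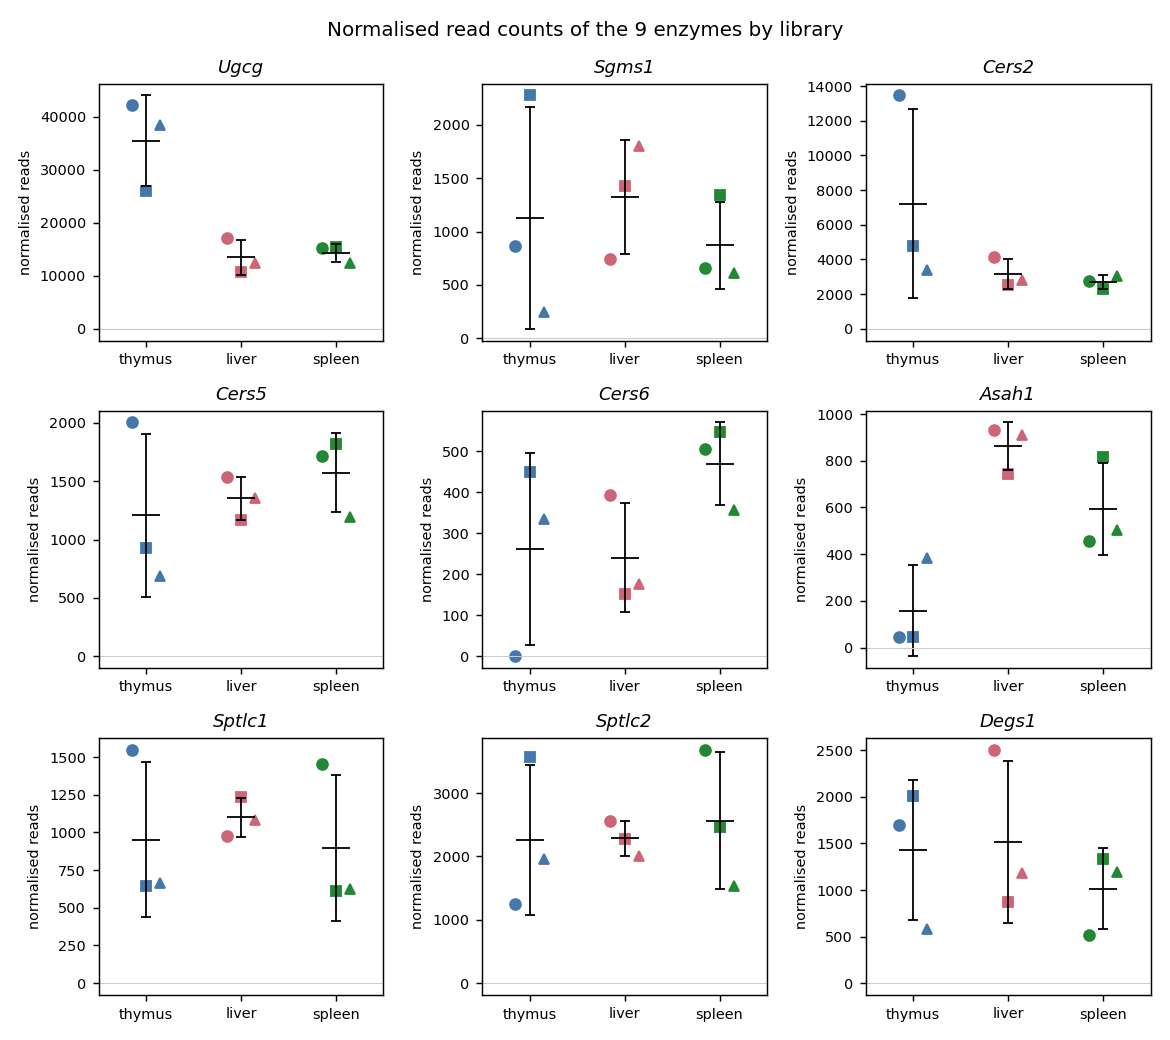
Normalised read counts of the 9 enzymes (linear axis, 1 panel per gene) by tissue; circles, squares and triangles are replicates 1, 2 and 3, horizontal lines are tissue means and bars are 1 SD (n = 3). The 3 thymus points of Ugcg lie at 25933 or more and all liver and spleen points at 17199 or less, while the thymus points of Cers6, Asah1 and Sgms1 are widely spread.

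Other cell types' markers and sex-linked genes also differed between the libraries, and their part in the Ugcg values was not tested. Hepatocyte markers summed to 1427 or more in liver and at most 49.0 in spleen. Without spleen replicate 1, the library with the highest myeloid and B cell sums, the spleen difference was -1.33. With only the libraries numbered 1 and 3, the differences were -1.46 and -1.55. That fit leaves out the libraries with high Xist and few Y-linked reads. It keeps thymus replicate 3, which had Xist at 16531 together with Y-linked reads.

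Of the 9 enzymes, Ugcg was the only gene past the threshold of the limma-trend fit (adjusted p under 0.05 over all 13309 genes), and it was lower in both liver and spleen. That is 1 of 9 against a background of 0.323% of all genes for liver against thymus (0.12% lower in liver) and 0.398% for spleen against thymus (0.21% lower in spleen). Since the list was built around Ugcg with these results known, nothing is read from the count. The sign of both differences held in 18 of 18 alternatives, but the call did not: it was kept in 12 of 18 for liver and 11 of 18 for spleen. The call was lost in both comparisons with equal library totals, with only the 6 samples compared and without thymus replicate 1. It was also lost for liver without liver replicate 2 or 3 and with only libraries 1 and 3, and for spleen without thymus replicate 3 or any 1 of the 3 spleen libraries. Between liver and spleen 0 of 9 passed limma-trend (background 0.015%), and 0 of 9 had an unadjusted p under 0.05; edgeR and DESeq2 on estimated reads called 0 as well.

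**Figure D2:**
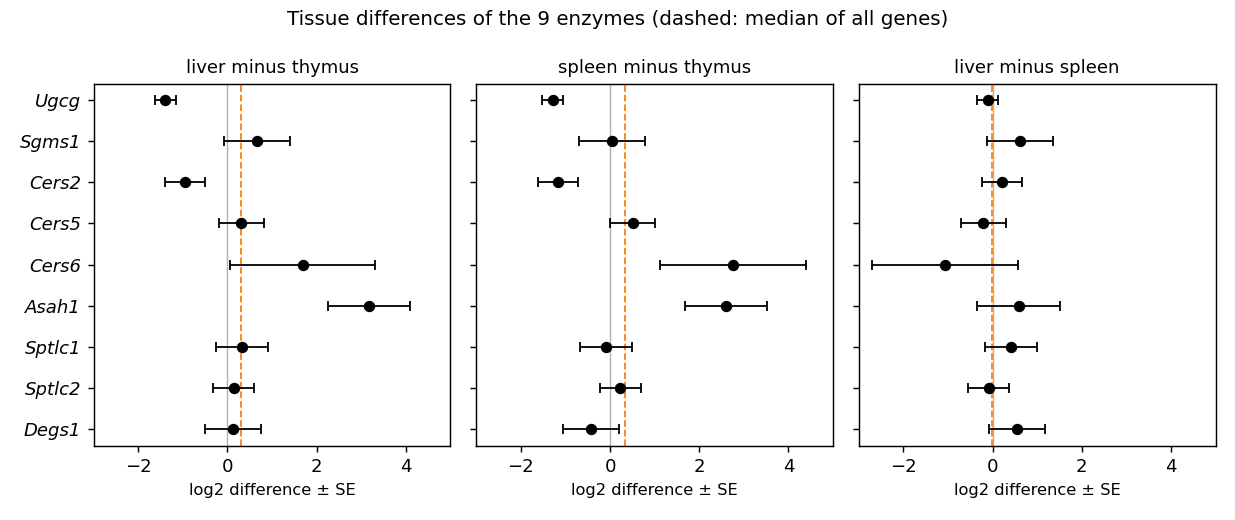
Log2 differences of the 9 enzymes in the 3 tissue comparisons; points are the limma-trend estimates on log2(value + 1), bars are 1 standard error, and the dashed line is the median of all genes tested. Against thymus, Ugcg lies at -1.39 and -1.29 with short bars, while Cers6 and Asah1 lie to the right of 0 with bars of 1.63 and 0.92. For liver minus spleen, Cers6 lies at -1.07.

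Serine palmitoyltransferase, the rate-limiting complex of the pathway, was represented by its subunits Sptlc1 (chromosome 13, 53332748 to 53377397) and Sptlc2 (chromosome 12, 87305058 to 87388355). Sptlc1 read 1549, 644 and 664 in thymus, 978, 1238 and 1084 in liver, and 1452, 610 and 627 in spleen. Its tissue ranges overlapped in every comparison. Sptlc2, which carries the pyridoxal phosphate site of the complex, read 1252, 3567 and 1953 in thymus. It read 2566, 2277 and 2011 in liver and 3686, 2468 and 1540 in spleen, so that the liver values fell within the thymus range. The log2 differences for liver minus thymus were 0.33 (SE 0.58) for Sptlc1 and 0.14 (SE 0.46) for Sptlc2, both small beside their errors. For spleen minus thymus they were -0.09 and 0.23, and the value for Sptlc1 turned to 0.08 with equal library totals. Single libraries turned signs here: without thymus replicate 1, Sptlc1 stood at 0.33 for spleen, and Sptlc2 at -0.22 for liver and -0.13 for spleen.

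Degs1, on chromosome 1 from 182275772 to 182282804, encodes the desaturase that converts dihydroceramide to ceramide. It read 1701, 2011 and 584 in thymus. Its liver values were 2507, 869 and 1182, and its spleen values 517, 1338 and 1188. The 3 tissues overlapped widely. The log2 difference was 0.12 (SE 0.62) for liver and -0.43 (SE 0.62) for spleen, each minus thymus. The liver value was -0.43 without thymus replicate 3 and -0.31 without liver replicate 1.

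Of the 3 ceramide synthases on the list, Cers2 was the most abundant, on chromosome 3 from 95314791 to 95323599. Cers2 prefers very long acyl chains, whereas Cers5 and Cers6 prefer long chains such as palmitoyl. Cers2 read 13465, 4764 and 3417 in thymus, 4165, 2546 and 2841 in liver, and 2745, 2289 and 3065 in spleen. Thymus replicate 1 stood apart from all the others. All spleen values lay below all thymus values, but the highest liver value lay above the lowest thymus value. The log2 difference was -0.95 (SE 0.44) for liver and -1.17 (SE 0.44) for spleen, and without thymus replicate 1 these were -0.37 and -0.59. Exons of Cers2 overlap exons of Setdb1 by 75 bases and 6330562C20Rik by 34 bases on the other strand, and the sources used here do not say whether reads were counted by strand.

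Cers5, on chromosome 15 from 99734881 to 99772885, read 2004, 927 and 688 in thymus, 1536, 1166 and 1357 in liver, and 1718, 1817 and 1190 in spleen. The ranges overlapped, with log2 differences of 0.31 and 0.51 from thymus (SE 0.50 each), or -0.02 and 0.18 without thymus replicate 3. Cers6, on chromosome 2 from 68861441 to 69114282, read 1.1, 449.9 and 336.0 in thymus, 394.9, 151.9 and 176.8 in liver, and 506.9, 546.9 and 356.1 in spleen. Thymus replicate 1 held an estimated 1 read of Cers6, against 268 or more in the other thymus libraries, and this library sets the thymus spread. The liver difference of Cers6 was 1.68 (SE 1.63) with all libraries, -0.82 without thymus replicate 1, and -0.13 with edgeR on estimated reads; the spleen difference went from 2.75 to 0.25 without that library.

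Within a library, the share of each ceramide synthase in their sum does not depend on library scaling. The sum was taken over values per kilobase of exon of Cers2, Cers4, Cers5 and Cers6. Cers4, also a synthase of long-chain ceramides, is not among the 9 enzymes. Cers2 made up 88.8, 83.6 and 82.5% of this sum in thymus, 73.1, 68.0 and 67.6% in liver, and 59.6, 55.9 and 72.0% in spleen. Every thymus library lay above every liver and spleen library, including thymus replicate 3, in which the Cers2 value itself was below that of liver replicate 1. Cers5 took 10.1 to 12.6% in thymus, 20.5 to 24.6% in liver and 21.3 to 33.7% in spleen, and Cers4 took 1.11 to 2.30%, 4.16 to 7.02% and 4.11 to 8.58%. Liver and spleen overlapped for the shares of Cers2, Cers5 and Cers4. Cers6 took 0.00237 to 2.55% in thymus, 1.27 to 2.18% in liver and 2.63 to 4.19% in spleen. For Cers6, thymus and liver overlapped, while every spleen library lay above every library of both. These shares were compared after their values were seen, and no test was made of them.

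**Figure D3:**
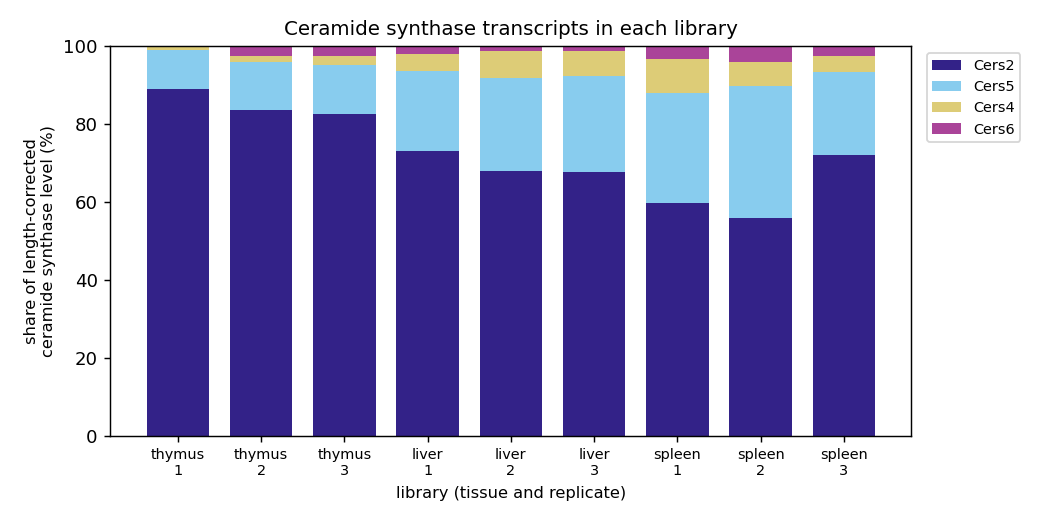
Share of Cers2, Cers4, Cers5 and Cers6 in their summed level per kilobase of exon (percent, stacked bars from 0 to 100), with 1 bar per library. The Cers2 part is 82.5% or more in each thymus bar and 73.1% or less in each liver and spleen bar.

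Sgms1 encodes sphingomyelin synthase 1, the Golgi enzyme that draws on the same ceramide as the enzyme of Ugcg but makes sphingomyelin. Its gene lies on chromosome 19 from 32122727 to 32389714. It read 867, 2276 and 245 in thymus, 746, 1429 and 1802 in liver, and 663, 1340 and 607 in spleen. Both its highest and its lowest library were from thymus. Its log2 difference was 0.66 (SE 0.74) for liver minus thymus, which was -0.18 without thymus replicate 3 and 1.43 without thymus replicate 2. For spleen it was 0.05 (SE 0.74), with the sign turned to -0.38 by edgeR and -0.42 by DESeq2 on estimated reads and to -0.79 without thymus replicate 3. The ratio of Ugcg to Sgms1 per kilobase was 55.9, 13.1 and 180 in thymus, 26.4, 8.68 and 7.91 in liver, and 26.4, 13.2 and 23.3 in spleen, so the tissues overlapped.

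Asah1 encodes acid ceramidase, the lysosomal enzyme that splits ceramide into sphingosine and a fatty acid. It lies on chromosome 8 from 41340197 to 41374773 on the minus strand. Its values ran opposite to those of Ugcg: 46.0, 46.3 and 382.4 in thymus, 931.7, 743.2 and 908.4 in liver, and 455.5, 817.3 and 502.4 in spleen. All liver and spleen libraries lay above all thymus libraries, and thymus replicates 1 and 2 rested on 41 and 40 reads. The means were 158 ± 194 in thymus, 861 ± 103 in liver and 592 ± 197 in spleen (SD, n = 3 each).

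The log2 difference of Asah1 was 3.18 (SE 0.92) for liver minus thymus and 2.60 (SE 0.92) for spleen minus thymus, and neither passed the limma-trend threshold. Without thymus replicate 3 the values were 4.19, which passed, and 3.60, which did not. Of 7 immature thymocyte markers, 5 were in the table; they summed to 936 in thymus replicate 3 and at most 16.9 in the other thymus libraries, to 88.8 to 1157 in liver, highest in replicate 1, and to at most 26.8 in spleen. In liver this sum was mostly Cd8a (1116, 146 and 85.8), while Rag1, Dntt and Arpp21 each read at most 0.815 there. In thymus replicate 3, Rag1 read 486, Cd8a 257 and Arpp21 153. The part of these markers in the Asah1 values was not tested. The ratio of Ugcg to Asah1 per kilobase was 635, 387 and 69.5 in thymus, 12.8, 10.1 and 9.47 in liver, and 23.2, 13.1 and 17.0 in spleen. The lowest thymus ratio was above the highest ratio of the other tissues. This follows from the values of Ugcg and Asah1, which separate thymus in opposite directions, and adds nothing to them.

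Values not overlapping between tissues were found for 2 of 9 enzymes between liver and thymus (Ugcg lower, Asah1 higher in liver). Between spleen and thymus there were 3 of 9, Ugcg and Cers2 lower and Asah1 higher in spleen, and between liver and spleen 0 of 9. The background was 15.3% of all genes for each comparison with thymus and 12.7% for liver against spleen. By direction it was 9.61% higher and 5.73% lower in liver than in thymus, and 9.29% higher and 6.03% lower in spleen. These counts too come from the comparisons known when the list was made. The median log2 difference of the 9 enzymes was 0.31 for liver and 0.05 for spleen, each minus thymus, beside 0.29 and 0.33 for all genes tested.

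Compared per kilobase of exon, Ugcg was the most abundant of the 9 enzymes in every tissue. Its level was 8859 ± 2129 normalised reads per kilobase in thymus, 3362 ± 826 in liver and 3577 ± 433 in spleen (SD, n = 3 each). In single libraries it stood between percentiles 97.8 and 99.6 of 13359 genes. Cers2 came next in each tissue, between percentiles 92.6 and 99.1, and Cers6 came last, between percentiles 23.4 and 46.1. Ugcg made up 55.1, 57.4 and 77.1% of the length-corrected sum of the 9 enzymes in thymus, 46.4, 44.3 and 45.0% in liver, and 51.6, 51.9 and 49.0% in spleen. No thymus library overlapped with the other tissues in this share, and no liver library overlapped with a spleen library. The list was built around Ugcg with tissue results known, so the higher thymus share partly restates the Ugcg difference. No test was made of these shares.

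All 9 enzymes had their largest spread between replicates in thymus. The same held for 60.3% of all genes tested and for 26 of 46 other sphingolipid genes. The median SD of log2 values over the 9 enzymes was 0.97 in thymus, 0.34 in liver and 0.45 in spleen. Ugcg had the smallest thymus SD of the 9, at 0.37, and Cers6 the largest, at 4.34.

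A wider list of 59 sphingolipid genes outside the 9 was drawn up by role, with earlier results of these data known; 47 were in the table and 46 passed the filter. By limma-trend, 0 of 46 passed the adjusted threshold in any comparison, against backgrounds of 0.323%, 0.398% and 0.015%. At an unadjusted p under 0.05 there were 4 for liver against thymus, 4 for spleen against thymus and 1 for liver against spleen. The share of all genes below that p was 11.6%, 11.7% and 3.03%. edgeR on estimated reads called 0 in each, and DESeq2 called 2 (Cerk and Cert1), 1 (Cerk) and 0. The median log2 differences were 0.21, 0.25 and 0.00428, near those of all genes at 0.29, 0.33 and -0.02.

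Ceramide carriers and the ceramide kinase lie beside Ugcg in the pathway. Cerk, which phosphorylates ceramide, read 1707, 3018 and 2142 in thymus, 224, 578 and 830 in liver, and 537, 778 and 845 in spleen. Its thymus libraries lay above all others. The log2 difference of -2.23 (SE 0.60) for liver had an adjusted p of 0.177 by limma-trend, and that of -1.65 for spleen had 0.294. Cert1, also called Col4a3bp, the carrier that brings ceramide to sphingomyelin synthase, was looked at after its values were seen. It read 4372, 4625 and 2986 in thymus and 1653, 2020 and 1654 in liver without overlap, while spleen, at 2406, 3009 and 1639, overlapped with thymus. Cptp, a ceramide 1-phosphate carrier, differed by 2.79 for spleen minus thymus, with an estimated 0 reads in thymus replicate 2 and 99 and 137 in the other thymus libraries; without replicate 2 it differed by 0.43.

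Downstream of glucosylceramide, the ganglioside enzymes had uneven levels. St8sia1, the sialyltransferase that makes ganglioside GD3, read 773.5, 1223.3 and 2564.1 in thymus, 0.8, 37.7 and 194.9 in liver, and 0.0, 74.9 and 147.4 in spleen. Thymus overlapped with neither other tissue, while liver and spleen overlapped and each had a wide spread. The log2 differences of St8sia1 from thymus were -5.80 (SE 2.02) and -5.91 (SE 2.02), with adjusted p of 0.291 and 0.268 by limma-trend. St3gal5, which makes its substrate GM3 and was singled out after its values were seen, had an estimated 0 reads in all 3 thymus libraries and at most 53 reads elsewhere. B4galnt1, the transferase that makes GM2, GD2 and their asialo form, read 6274 to 12890 over the 9 libraries and was singled out in the same way.

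Genes of sphingomyelin and ceramide turnover had differences that single libraries moved. Sgms2, the second sphingomyelin synthase, had a log2 difference of -1.25 for liver minus thymus, which turned to 0.96 without thymus replicate 1 and 0.08 without liver replicate 1. Its 3 thymus values were 321.2, 9.3 and 0.0. Smpd2, a neutral sphingomyelinase, read 1078, 117 and 531 in thymus and 85.7, 201.5 and 134.8 in spleen, a log2 difference of -1.61, or -0.91 without thymus replicate 1 and -2.50 without replicate 2. Smpd1, acid sphingomyelinase, differed by 3.02 for liver minus thymus, with 0 reads in thymus replicate 1 and 421 in replicate 3. Without thymus replicate 1 this was 0.33, and without replicate 3 it was 4.84. The ceramidases Acer2 and Asah2 differed by 3.98 and 3.50 for spleen minus thymus, and their highest thymus values were 77.4 and 276.8. Leaving out 1 library moved these between 2.47 and 5.59 for Acer2 and between 1.95 and 6.19 for Asah2. Apart from Smpd2, each of these genes had a thymus library with an estimated 0 reads.

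Between liver and spleen, the largest differences of the wider list included several of the same genes. Cptp stood at -2.26 for liver minus spleen, Acer2 at -2.04 and Acer3, another ceramidase, at -1.65. Without liver replicate 3, the shallowest library and the only one of liver and spleen with 0 reads of Cptp, Cptp stood at -0.06. Acer3 stood at -0.51 without liver replicate 1, -0.86 without spleen replicate 1, -2.60 without liver replicate 3 and -2.73 without spleen replicate 3. Smpd1 stood at 2.70, Gla at 2.12 and Degs2, a desaturase and hydroxylase related to Degs1, at 1.12. Spleen replicate 1 had 0 reads of Smpd1, and without it Smpd1 turned to -0.16 and Gla moved to 1.02. Degs2 stood at 0.28 without spleen replicate 2 and 1.92 without spleen replicate 1. None of these 6 genes passed limma-trend in this comparison.

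The breakdown of glycosphingolipids was covered by 12 genes. Gla, alpha-galactosidase A, and Neu3, a sialidase of gangliosides, had the largest log2 differences for liver minus thymus, at 4.63 and 3.74. Gla had an estimated 0, 0 and 397 reads in thymus. Leaving out 1 library moved its difference between 3.14 and 7.60, highest without thymus replicate 3. Over all alternatives the lowest difference of Gla was 0.46. Without thymus replicate 2 that of Neu3 was 1.56. On the log2 scale 10 of 12 were above 0 for liver and 9 of 12 for spleen, with medians of 1.96 and 1.57; of all genes tested, 59.9% and 61.2% were above 0. By arithmetic means only 7 of 12 and 5 of 12 were higher than in thymus. For 6 of 12, at least 1 thymus library held at most 3 estimated reads, and such libraries weigh more on a log2 scale than in an arithmetic mean.

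**Figure D4:**
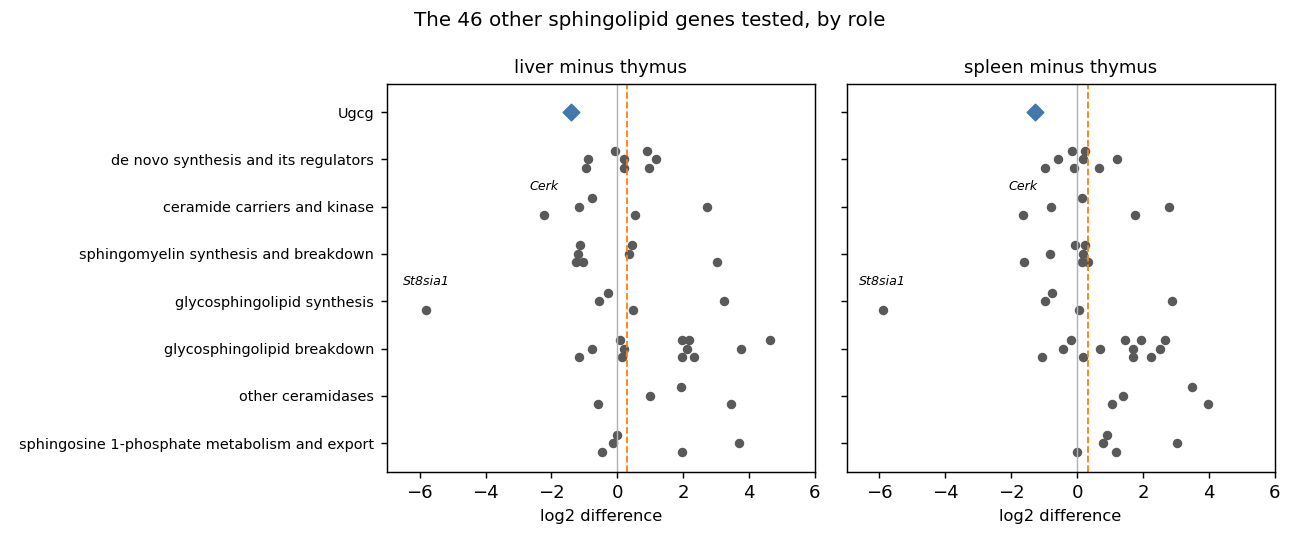
Log2 differences from thymus of the 46 other sphingolipid genes, in rows by role, for liver and for spleen; each dot is a gene (shifted up or down only to part the dots), the diamond is Ugcg and the dashed line is the median of all genes tested. None of the 46 passed the threshold; St8sia1 lies lowest at -5.80 and -5.91, and 10 and 9 of the 12 glycosphingolipid breakdown genes lie to the right of 0.

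Over the 9 libraries, the genes most like Ugcg in log2(value + 1), among 8911 with a mean of at least 100, were Slc16a10 (Pearson r = 0.967), Ralgapb (0.965), Klrd1 (0.963), Itgae (0.957) and Washc4 (0.949). The lowest were Ddt at -0.980 and Nif3l1 at -0.969. These correlations share 9 libraries in 3 tissues and are a description only. Itgae, the alpha chain of the CD103 integrin, read 6590, 3586 and 7786 in thymus and 13.1 to 382 in liver and spleen. Klrd1, the CD94 receptor chain, read 13285 to 20458 in thymus and 2173 to 4044 elsewhere. Among the 9 enzymes, Cers2 was nearest to Ugcg at 0.746 and Asah1 farthest at -0.726.

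RefSeq promoter windows of GRCm38.p6 were matched for 8 of the 9 enzymes, all but Asah1. A gene with several windows counted as holding a motif when any window did, on either strand. The GC box GGGCGG was found for 6 of 8 (Ugcg, Sgms1, Cers2, Cers5, Sptlc1 and Sptlc2), beside 67.5% of 9133 tested genes and 35.7% of all 32851 windows. CCAAT was found for 5 of 8, beside 43.1% of tested genes. The T-box letters GGTGTGA, the core bound by factors such as T-bet, were found for Sptlc1 and Cers5, or 2 of 8, beside 4.04% of tested genes and 3.98% of windows. They are shown because all cells studied were defined by Tbx21; capitals mark the motif, read as TCACACC in the stretch of Sptlc1. Both genes lie on the minus strand, at chr13:53377483-53377512 for Sptlc1 and chr15:99772715-99772744 for Cers5.
Sptlc1, T-box letters: gtccaagcactTCACACCcgaacgagcaca
Cers5, T-box letters: cctgaggtaggGGTGTGAccatggtgatgt
The Ugcg window did not hold these letters, and a match or its absence is a description of the window only. The values of Sptlc1 and Cers5 overlapped between all tissues.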

How the data were processed

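iNKT1 cell RNA from 9 libraries was read on a NextSeq500 for 76 cycles, per the labels' protocols. The submitters' processing notes name Trimmomatic 0.33, TopHat2 2.1.0, HTSeq 0.6.1, edgeR and mm10, with no role or order given. The authors deposited 1 normalised value per gene and library, a signal that is not a whole number; how it was scaled is not given in the sources used here. Low values lay on a ladder of equal steps, from which reads were estimated; values of 1 to 20 reads were within 0.1 reads of a whole number for over 95% in 8 libraries and for 73.3% in liver replicate 3. Symbols were matched for 13359 of 14004 genes. Gene coordinates and exon lengths are GENCODE's on GRCm38, which is mm10.

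The tests were limma-trend (limma 3.58.1, R 4.3.3), two-sided, on log2(value + 1) for the 13309 genes that reached 1 in 3 or more libraries, with all 9 libraries in 1 fit, a term per tissue, Benjamini-Hochberg adjustment over all genes and a threshold of 0.05. Adding 1 shrinks the log2 differences of genes near 0, but a single library with few reads can widen them. For Cers6, spleen minus thymus was 2.75 on this scale, 0.84 with edgeR and 0.82 with DESeq2. edgeR 4.0.16 and DESeq2 1.42.0 on estimated reads, another pseudocount, scaling, filter and sample choices and each library left out were alternatives. The script was tested on simulated data. The estimated depth per library, with no molecular identifiers mentioned, limits genes of few reads to counting error at best.

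The 9 enzymes, the wider list and the marker lists were chosen with earlier results of these data known. Named beside the 9 enzymes are, per comparison, the 3 wider-list genes with the largest log2 difference in each direction if the tissue with the larger mean reached 100, and the 5 genes most and 2 least correlated with Ugcg. Comparisons with thymus share its 3 libraries.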

Additional observations from a re-analysis of the deposited data

How the results depend on the processing

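Leaving out each library moved the count of genes past the threshold between 8 and 151 for liver against thymus (43 with all), 9 and 140 for spleen against thymus (53), and 0 and 3 for liver against spleen (2). The highest counts in the thymus comparisons came without thymus replicate 3. For the 9 enzymes the ranges were 0 to 2, 0 to 1 and 0 to 0 (1, 1 and 0 with all), and for the wider list 0 to 1, 0 to 0 and 0 to 0. For liver against thymus, edgeR called 25 genes (13 higher, 12 lower, beside 27 and 16 in limma-trend), DESeq2 457, and the fits of the 6 samples compared and of libraries 1 and 3 called 12 each. For spleen against thymus, DESeq2 called 514, the 6 samples 16 and libraries 1 and 3 19; equal library totals gave 22 higher and 16 lower, beside 25 and 28. For liver against spleen, DESeq2 called 25, the 6 samples 6, libraries 1 and 3 0 and array weights 18. In the wider list DESeq2 called 2 genes for liver and 1 for spleen against thymus. Of the 9 enzymes, 0 passed for liver against thymus with equal totals, the 6 samples, or libraries 1 and 3, and 0 for spleen against thymus with equal totals or the 6 samples. The cause of these changes was not tested, beyond fewer samples in some fits. Deviations from the tissue means correlated weakly, from -0.00073 to 0.0891 for libraries with the same number and from -0.0866 to 0.0484 for others. Between liver and spleen, every same-number value lay above every other value. The libraries numbered 2 also shared high Xist and few Y-linked reads. The numbers were not taken as pairs in the main fit. With the replicate block 42, 55 and 4 genes passed, and Ugcg remained past the threshold in both thymus comparisons. The shallow liver replicate 3, at 3877451 estimated reads, and thymus libraries with few reads of a gene limit low genes such as Gla, Asah2 and Acer2.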

Other observations

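Some genes of the wider list had single libraries or tissues that stood apart, and all of those given here were chosen after their values were seen. Sgpp1, the phosphatase that returns sphingosine 1-phosphate to sphingosine, read 4581, 6213 and 3242 in spleen. Its thymus values were 3143, 1946 and 2320 and its liver values 2815, 2137 and 1781, so that spleen lay above both without overlap. The log2 difference was 0.90 (SE 0.38) for spleen minus thymus, and it did not pass limma-trend (adjusted p = 0.358). For liver minus spleen the difference was -1.04, which did not pass limma-trend either. Cers4 was lower in thymus, at 716, 383 and 407, than in liver, at 1013, 1123 and 1162, and in spleen, at 1689, 1082 and 748. Its log2 differences from thymus were 1.19 for liver and 1.20 for spleen (SE 0.57 each). Neither passed limma-trend (adjusted p = 0.434 and 0.428). Values did not overlap for 15.3% of all genes in each comparison with thymus.

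Neu1, a lysosomal sialidase, read 3356, 2483 and 66.5 in thymus. Its liver values were 417, 448 and 268. Its log2 difference for liver minus thymus was -1.16 with all libraries, short of the limma-trend threshold at an adjusted p of 0.718. Of 18 alternatives, 1 brought it past: without thymus replicate 3 it was -2.97 (adjusted p = 0.0388). It was -0.15 without thymus replicate 1 and -0.37 without thymus replicate 2. Glb1, lysosomal beta-galactosidase, read 6948, 1.2 and 1027 in thymus, and 120 to 648 in the 6 libraries of the other tissues.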
